A study of Mus musculus with 12 samples.

Results

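The genes examined here act in glutamate transmission and in the calcium signalling that follows it in neurons. They are 8 genes chosen by name, Slc17a7, Grin2a, Grin2b, Cacng3, Cacna1e, Camk2a, Camk2n1 and Adcy1, out of the 15928 genes of an RNA-seq count table. Because the table carries no gene names, a gene could be named only where its mean normalized count had a single match among the means that the study lists. This was so for 1349 genes, all 8 included.

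RNA was measured in brain tissue that held both hippocampus and cortex, from 5 wild-type (Wt) and 7 Tg2576 (Tg) mice whose labels give an age of 11 months and name no agent given to any mouse. Tg mice express human APP that bears the Swedish change, and the counting is not stated to separate transgene reads from mouse App reads. The Wt group held 3 mice labelled female (mice 12, 79 and 80) and 2 labelled male (mice 41 and 95). The Tg group held 4 labelled female (mice 32, 91, 92 and 93) and 3 labelled male (mice 67, 68 and 69). Libraries were prepared and sequenced in 2 batches, and batch 2 held 2 Wt females (mice 79 and 80) and 2 Tg males (mice 68 and 69), so within it the effects of genotype and of sex cannot be told apart. Between 15768135 and 20996174 reads were counted per mouse. The 8 genes had at least 905 reads each in every mouse, so the spread between mice limited the comparisons more than counting error did. The tissue was analysed whole, and fewer cells of a type and less RNA per cell cannot be told apart.

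Glutamate is loaded into synaptic vesicles by a transporter, released, and sensed by receptor channels on the receiving neuron. NMDA receptors and voltage-gated channels let calcium into that neuron, where calmodulin-dependent kinases and calcium-sensitive enzymes pass the signal on. These steps are known for their part in synaptic plasticity in hippocampus and cortex.

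The labels were checked first. App, the gene for the amyloid precursor protein, had at most 1496 CPM (read counts scaled to library size with edgeR's TMM factors) in Wt mice and at least 2991 CPM in Tg mice, so the genotype groups did not overlap. Xist, an RNA expressed from the silenced X of female cells, had at least 149.5 CPM in all 7 mice labelled female and at most 0.0563 CPM in 4 of the 5 labelled male. Mouse 41, a Wt mouse labelled male, had 199 CPM of Xist, which goes against its label. Mouse 41 also had the highest level of the 12 mice for each of the 8 genes, as it did for 17.6% of all genes. The 2 Wt mice labelled male, 41 and 95, held the highest 2 levels for 5 of the 8 genes, against 2.64% of all genes. Genes could be named only through the study's own Tg against Wt ranking of these mice, and all 8 were lower in Tg mice. This favours Wt mice among the highest, so nothing about the 8 genes is read from these shares. Fold changes, their counts and correlations are also given without this mouse where named, and other values include it.

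Levels of different genes were compared as CPM per kilobase of annotated exon. On this scale Camk2a was the most abundant of the 8 genes, at 328 ± 54.7 in Wt (SD, n = 5) and 278 ± 33.0 in Tg mice (SD, n = 7). Slc17a7 followed at 288 ± 78.6 in Wt and 242 ± 36.4 in Tg mice, and Camk2n1 at 209.6 ± 27.9 in Wt and 177 ± 20.6 in Tg mice. These 3 genes stood apart from the rest, with Camk2n1 above Adcy1 by 2.33 ± 0.34 on the log2 scale within a mouse (SD, n = 12). Adcy1 had 43.5 ± 19.7 in Wt and 35.5 ± 4.73 in Tg mice, and Cacng3 had 33.0 ± 2.84 and 26.0 ± 4.09. Grin2b had 31.5 ± 7.00 in Wt and 25.4 ± 3.44 in Tg mice, and Cacna1e had 21.4 ± 3.76 and 17.2 ± 2.14. Grin2a was the least abundant, at 6.07 ± 2.06 in Wt and 5.29 ± 0.836 in Tg mice. Cacng3 was above Grin2b in 7 of 12 mice, so these neighbours did not differ beyond their spread. Adcy1 was above Cacng3 in 10 of 12 mice and Slc17a7 above Camk2n1 in 11 of 12, and the other 4 neighbouring pairs kept their order in 12 of 12.

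Of the 8 genes, 4 have an entry in the RefSeq promoter table (build GRCm38.p6), and for Slc17a7 and Adcy1 the 250 bases before the RefSeq start hold no annotated exon. These promoters are shown because the genes stand at either end of the pathway, vesicle loading and cyclic AMP synthesis, and their levels differed in how far mouse 41 stood apart. Both windows are read on the plus strand, at chr7:45163671-45163920 for Slc17a7 and chr11:7063183-7063432 for Adcy1. Capitals mark matches, on either strand, to the GC box GGGCGG and the E-box CACGTG, and overlapping matches form 1 run.
Slc17a7: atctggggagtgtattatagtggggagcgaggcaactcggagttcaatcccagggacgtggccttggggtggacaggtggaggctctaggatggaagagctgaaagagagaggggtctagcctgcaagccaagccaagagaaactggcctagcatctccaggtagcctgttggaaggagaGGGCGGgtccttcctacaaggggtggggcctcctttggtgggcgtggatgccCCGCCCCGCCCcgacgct
Adcy1: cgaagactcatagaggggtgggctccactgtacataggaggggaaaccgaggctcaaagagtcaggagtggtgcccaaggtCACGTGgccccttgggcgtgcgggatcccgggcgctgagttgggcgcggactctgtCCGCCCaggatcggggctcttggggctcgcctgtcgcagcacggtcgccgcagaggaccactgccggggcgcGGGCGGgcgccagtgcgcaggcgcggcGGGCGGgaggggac
Each window held 3 matches to GGGCGG, which is present in 32.7% of the 32851 promoter windows of the same length. CACGTG, present in 6.02% of windows, had 1 match in the Adcy1 window and 0 in the Slc17a7 window. The CREB sites TGACGTCA (in 1.55% of windows) and TGACG (in 17.8%) and the EGR site GCGTGGGCG (in 0.536%), searched on both strands, had 0 matches in either window. A match describes letters, and binding was not tested. The GC content was 61.2% in the Slc17a7 window and 71.2% in the Adcy1 window, against a median of 52.4% over all windows.

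Slc17a7 encodes the vesicular glutamate transporter VGLUT1 of the releasing terminal (chromosome 7 of GRCm38, 45163949 to 45176142, plus strand). Its level was 1378 CPM in Wt mouse 12, 1579 in mouse 79, 948 in mouse 80, 2059 in mouse 41 and 1806 in mouse 95. In Tg mice it ranged from 973 to 1503 CPM, with a median of 1254. The 2 Wt mice labelled male were the highest of the 12 and the Wt female mouse 80 was the lowest, so the Tg range lay inside the Wt range. The log2 fold change of Tg against Wt was -0.26 (standard error 0.14, 95% interval -0.56 to 0.04) in edgeR's quasi-likelihood fit with sex and batch as covariates. It was -0.22 without mouse 41, -0.36 without mouse 80 and -0.14 without mouse 79.

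**Figure D1:**
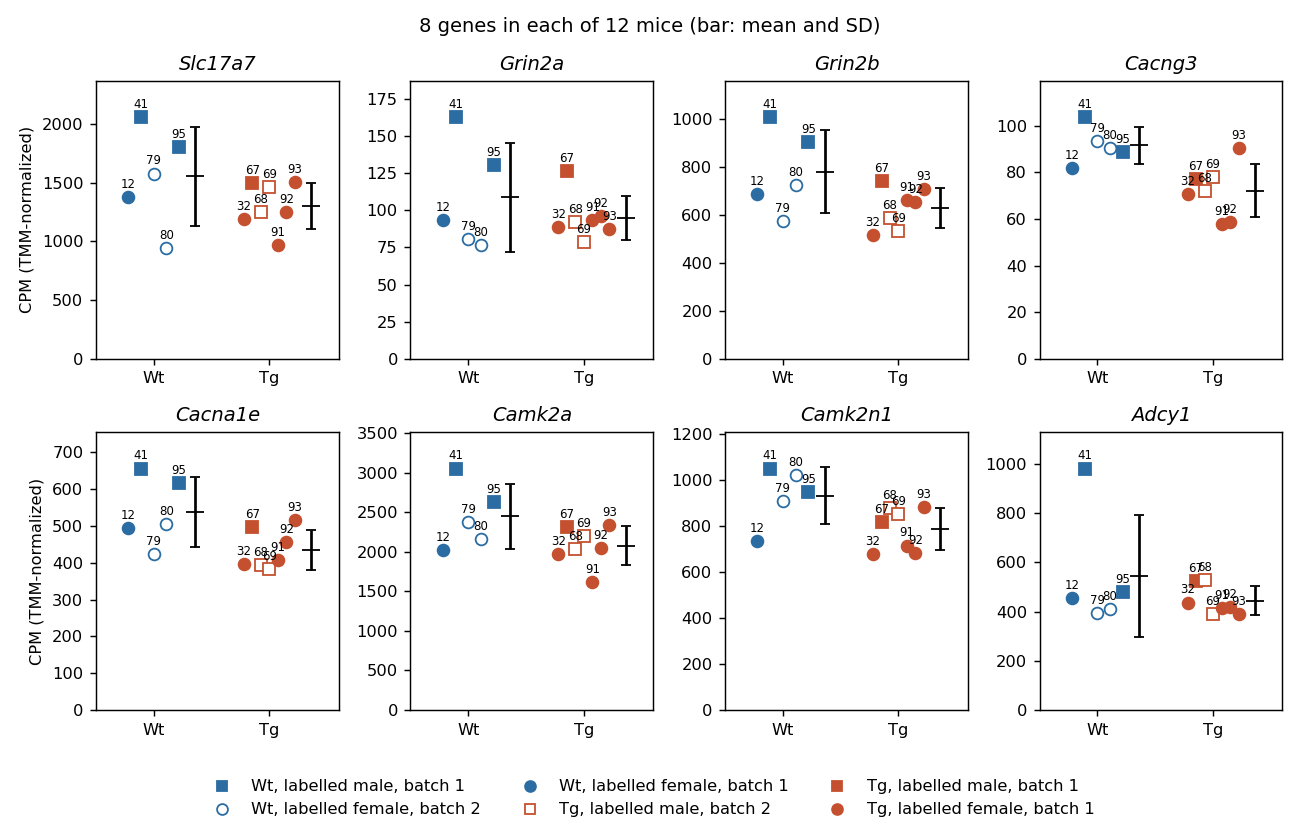
CPM of each of the 8 genes (vertical axes, from 0) in every Wt and Tg mouse, numbered by mouse, with squares for mice labelled male, circles for mice labelled female, open symbols for batch 2, and a bar for each group's mean and SD. Mouse 41 is the highest of the 12 mice in all 8 panels, and Wt and Tg mice overlap in each.

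Grin2a and Grin2b encode the GluN2A and GluN2B subunits of NMDA receptors, which shape the kinetics of the channel. Grin2a (chromosome 16, 9567898 to 9995560, minus strand) had 93.2 CPM in Wt mouse 12, 81.0 in mouse 79, 76.4 in mouse 80, 163 in mouse 41 and 131 in mouse 95. In Tg mice Grin2a ranged from 78.9 to 126 CPM, with a median of 92.2. Its 3 highest values came from the 3 mice labelled male in batch 1, of both genotypes (mice 41, 95 and 67), and 0 of 7 Tg mice lay below all Wt mice.

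Grin2b (chromosome 6, 135713233 to 136173511, minus strand) had 689.5 CPM in Wt mouse 12, 577 in mouse 79, 726 in mouse 80, 1009 in mouse 41 and 906 in mouse 95. In Tg mice Grin2b ranged from 517 to 743 CPM, with a median of 655. Mice 41 and 95 stood above the other 10 mice, and 2 of 7 Tg mice lay below all Wt mice. The log2 fold change of Tg against Wt was -0.34 for Grin2b (standard error 0.11, 95% interval -0.57 to -0.11) and -0.22 for Grin2a (standard error 0.085, interval -0.40 to -0.04) in the same fit. Without mouse 41 these values were -0.30 for Grin2b and -0.15 for Grin2a. Without covariates and without mouse 41, the difference of mean log2 CPM was 0.012 for Grin2a (exact permutation p = 0.958) and -0.19 for Grin2b (exact permutation p = 0.188). The direction for Grin2a without this mouse thus rested on the covariates.

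Cacng3 encodes an auxiliary subunit of AMPA-type glutamate receptors that aids their trafficking (chromosome 7, 122670492 to 122769393, plus strand). It had 82.0 CPM in Wt mouse 12, 93.5 in mouse 79, 90.4 in mouse 80, 104 in mouse 41 and 88.9 in mouse 95. In Tg mice it ranged from 58.0 to 90.3 CPM, with a median of 72.0. Of the 8 genes Cacng3 had the least overlap: 6 of 7 Tg mice lay below all Wt mice, and the Tg female mouse 93 lay within the Wt range. It was also the gene with the smallest spread among Wt mice, with an SD of 0.12 in log2 CPM against 0.20 to 0.54 for the other 7 genes. Among Tg mice its SD was instead the largest of the 8, at 0.2283, just above that of Slc17a7 (0.2276). The other 7 genes had a smaller SD in Tg than in Wt mice. The fitted log2 fold change was -0.35 (standard error 0.11, 95% interval -0.58 to -0.11), or 21.3% lower in Tg mice, and -0.30 without mouse 41.

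Cacna1e encodes the pore-forming subunit of R-type voltage-gated calcium channels (chromosome 1, 154390731 to 154884501, minus strand). Its level was 495 CPM in Wt mouse 12, 423 in mouse 79, 504 in mouse 80, 656 in mouse 41 and 616 in mouse 95. In Tg mice it ranged from 382 to 515 CPM, with a median of 406. Mice 41 and 95 were again the highest, and 4 of 7 Tg mice lay below all Wt mice. The fitted log2 fold change was -0.34 (standard error 0.093, 95% interval -0.54 to -0.14) and -0.32 without mouse 41.

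Camk2a encodes the alpha subunit of calcium/calmodulin-dependent kinase II, and Camk2n1 encodes an inhibitor protein of the same kinase. Camk2a (chromosome 18, 60925618 to 60988152, plus strand) had 2026 CPM in Wt mouse 12, 2379 in mouse 79, 2159 in mouse 80, 3053 in mouse 41 and 2632 in mouse 95. In Tg mice Camk2a ranged from 1616 to 2342 CPM, with a median of 2052. All 7 Tg mice lay below the Wt median and 2 of 7 below all Wt mice.

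Camk2n1 (chromosome 4, 138454314 to 138460123, plus strand) had 734 CPM in Wt mouse 12, 908 in mouse 79, 1019.8 in mouse 80, 1049 in mouse 41 and 946 in mouse 95. In Tg mice Camk2n1 ranged from 679 to 883 CPM, with a median of 815. All 7 Tg mice lay below the Wt median, and 3 of 7 below all Wt mice, since the Wt female mouse 12 lay among the lower Tg values. The fitted log2 fold change was -0.25 for Camk2a (standard error 0.11) and -0.23 for Camk2n1 (standard error 0.099), and both were -0.19 without mouse 41.

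Adcy1 encodes a brain adenylyl cyclase that calcium and calmodulin stimulate (chromosome 11, 7063489 to 7178506, plus strand). It had 457 CPM in Wt mouse 12, 396 in mouse 79, 409 in mouse 80, 982 in mouse 41 and 478 in mouse 95. In Tg mice it ranged from 390.1 to 528 CPM, with a median of 420.1. Mouse 41 stood alone, with the next highest value 528 CPM (Tg mouse 68), while the other 4 Wt mice lay within the Tg range. The fitted log2 fold change was -0.29 with all 12 mice (standard error 0.15), -0.04 without mouse 41 and -0.44 without mouse 95. The size of the Adcy1 value thus rested on single Wt mice. Without covariates and without mouse 41, the difference of mean log2 CPM was 0.024 (exact permutation p = 0.815).

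All 8 genes had a negative log2 fold change of Tg against Wt. For 6 of the 8 (all but Slc17a7 and Adcy1) the unadjusted p was under 0.05, and 2.73% of the 15928 genes were lower at that p. The adjusted p of the 8 genes lay between 0.61 and 0.734 in edgeR's quasi-likelihood F-test (Benjamini-Hochberg, adjusted over the whole table), and 0 of the 8 passed the threshold of 0.1. By DESeq2, 6 of the 8 were also lower at an unadjusted p under 0.05, as were 511 of all 15928 genes. At the adjusted threshold 0 of the 8 passed in DESeq2. In exact permutation tests of log2 CPM, without covariates, unadjusted p was under 0.05 only for Cacng3 (0.0101) and Cacna1e (0.0341). The exact permutation p was 0.0505 for Camk2n1, 0.077 for Camk2a, 0.0808 for Grin2b, 0.282 for Slc17a7, 0.431 for Adcy1 and 0.471 for Grin2a. Of all genes, 1 (App) passed it in edgeR (0.00628%), with 1146 at an unadjusted p under 0.05, and 56 passed in DESeq2. Without mouse 93 edgeR called 2 genes. Nothing about the 8 genes is read from this contrast, because a gene could be named only if the study's own comparison of these mice ranked it near the top, and 81.3% of the named genes had an unadjusted p under 0.05 here. The median log2 fold change was -0.28 over the 8 genes, 0.32 over the 1349 named genes and 0.00 over all genes. Without mouse 41, 3 of the 8 genes (Grin2b, Cacng3 and Cacna1e) had a lower level at an unadjusted p under 0.05, against 1.77% of all genes, and without mouse 69 it was also 3. Without both Wt mice labelled male, an alternative chosen after seeing the data, it was 0 of 8, and within batch 1 alone (3 Wt and 5 Tg mice) also 0 of 8. Among these settings a share of all genes was counted only without mouse 41. Log2 fold changes within batch 1 were -0.11 for Grin2a, -0.15 for Camk2a and -0.13 for Camk2n1. They were larger for Grin2b (-0.23), Adcy1 (-0.29), Cacna1e (-0.25), Cacng3 (-0.27) and Slc17a7 (-0.25). Without both Wt mice labelled male they were -0.14 for Grin2a, -0.13 for Camk2a, -0.10 for Camk2n1 and -0.15 for Adcy1. Those of Grin2b (-0.24), Cacna1e (-0.26), Cacng3 (-0.32) and Slc17a7 (-0.18) were larger, although none had an unadjusted p under 0.05.

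**Figure D2:**
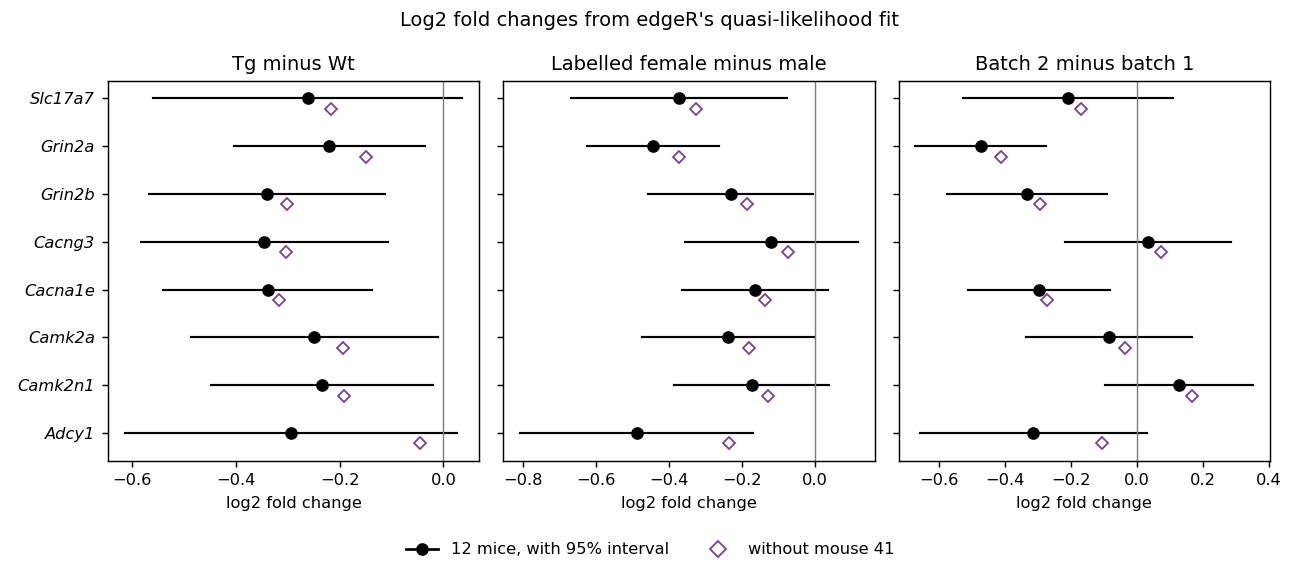
Log2 fold changes of the 8 genes (horizontal axes) for Tg minus Wt, mice labelled female minus male, and batch 2 minus batch 1, from 1 edgeR fit with 95% intervals, and without mouse 41 (open diamonds). All 8 genes are below 0 for genotype and sex, and Adcy1 moves most when mouse 41 is left out, from -0.29 to -0.04 for genotype.

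Sex was compared in the same fit and the same mice. Genes were named through a Tg against Wt test that adjusts for sex, and without a sex term 3 of the 8 genes were lower in Tg mice at an unadjusted p under 0.05, so the sex values are not free of the naming. The log2 difference of mice labelled female minus male, after genotype and batch, was negative for all 8 genes and for 7573 of 15928 genes. It ran from -0.49 (Adcy1) to -0.12 (Cacng3) over the 8, and the 95% intervals of Camk2n1, Cacna1e and Cacng3 span 0. The Cacng3 value ran from -0.20 without mouse 93 to -0.07 without mouse 41. Of the 8 genes 5 were lower at an unadjusted p under 0.05 (Grin2a, Adcy1, Slc17a7, Grin2b and Camk2a), against 5.91% of all genes. Grin2a had the smallest p of the 8: its log2 difference was -0.44 (standard error 0.084, 95% interval -0.63 to -0.26, adjusted p = 0.243 by edgeR's F-test, Benjamini-Hochberg). The edgeR test called 0 genes of the table by sex at the adjusted threshold, with 1801 at an unadjusted p under 0.05, while DESeq2 called 175, of which Grin2a was the 1 among the 8 (adjusted p = 0.00391 in DESeq2). Without mouse 41, whose Xist level goes against its label, 2 of the 8 genes were under an unadjusted p of 0.05. They were Grin2a (-0.37) and Adcy1 (-0.23, against -0.49 with all mice), and 2.4% of all genes were lower at that p. The log2 differences of Slc17a7, Grin2b and Camk2a were then -0.32, -0.19 and -0.18, against -0.37, -0.23 and -0.24 with all mice. Without mouse 41 edgeR called 1 gene of the table. Without mouse 95, the other Wt mouse labelled male, edgeR called 540 genes by sex, with Grin2a (-0.49, adjusted p = 0.0523) and Adcy1 (-0.64, adjusted p = 0.0547, edgeR with Benjamini-Hochberg adjustment) among them.

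Genotypes were then compared within each sex. Among mice labelled male, all 3 Tg mice lay below both Wt mice for 7 of the 8 genes, the exception being Adcy1, and this order, with mouse 41 as 1 of the 2 Wt mice, held for 11.1% of all genes. The 8 genes were named through a Tg against Wt ranking of these same mice, which favours such an order. Nothing about the 8 genes is therefore read from this count. Among mice labelled female, all 4 Tg mice lay below all 3 Wt mice for 0 of the 8 genes (1.56% of all genes). Over all mice, 0 of the 8 genes had every Tg mouse below every Wt mouse (0.113% of all genes). For Grin2a the mean was 147 ± 22.7 CPM in the Wt mice labelled male (SD, n = 2) and 99.2 ± 24.5 in the Tg mice labelled male (SD, n = 3). In mice labelled female the order of the Grin2a means was the other way, 83.5 ± 8.69 CPM in Wt (SD, n = 3) and 91.6 ± 4.06 in Tg mice (SD, n = 4). Batch differed between these groups: batch 2 held 2 of 3 Wt and 0 of 4 Tg mice labelled female, and 0 of 2 Wt and 2 of 3 Tg mice labelled male. In means within a sex, genotype and batch therefore cannot be told apart, and the 1 Wt female of batch 1 (mouse 12, 93.2 CPM of Grin2a) lay within the Tg females (87.6 to 96.4 CPM). For Cacng3 the means of mice labelled female were 88.6 ± 5.93 CPM in Wt and 69.4 ± 15.1 in Tg mice, and those of mice labelled male 96.3 ± 10.5 and 75.7 ± 3.28. The genotype by sex term was positive for all 8 genes, from 0.07 for Cacng3 to 0.34 for Adcy1 on the log2 scale, with unadjusted p from 0.321 to 0.828 in edgeR's fit. None of the 8 (0 of 8) reached an unadjusted p of 0.05, against 3.56% of all genes in either direction. Without mouse 41 the term ran from -0.27 to 0.22 over the 8 genes. The edgeR test called 0 genes for this term at the adjusted threshold, with 567 at an unadjusted p under 0.05, and DESeq2 called 17. Without mouse 32, and likewise without mouse 95, edgeR called 1 gene. A difference between the sexes in how far Tg and Wt mice differed was therefore not detected for these genes, and the Wt mice labelled male were 2, with 1 against its label.

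Differences between library batches varied among the 8 genes. Batch 2 held only Wt mice labelled female and Tg mice labelled male. A batch difference and a genotype by sex difference therefore cannot be fully told apart in the values below. The test through which genes were named adjusts for batch as well as sex, so the batch values are not free of the naming. After sex and genotype, batch 2 was lower than batch 1 by a log2 difference of -0.47 for Grin2a (95% interval -0.67 to -0.28), -0.33 for Grin2b (-0.58 to -0.09) and -0.30 for Cacna1e (-0.51 to -0.08). These 3 of the 8 had an unadjusted p under 0.05, against 4.29% of all genes that were lower at that p. Without mouse 41 the values were -0.41 for Grin2a, -0.29 for Grin2b and -0.27 for Cacna1e. The other 5 genes had intervals that span 0, with positive values for Camk2n1 (0.13) and Cacng3 (0.03). Without mouse 41 these 2 values were 0.17 and 0.07. Leaving out this mouse moved Adcy1 from -0.31 to -0.11, Slc17a7 from -0.21 to -0.17 and Camk2a from -0.08 to -0.04. The edgeR test called 0 genes by batch at the adjusted threshold, with 1217 at an unadjusted p under 0.05, and DESeq2 called 24, of which 1 was among the 8.

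How the 8 genes varied with each other across the 12 mice was compared for all 28 pairs of log2 CPM. Pearson's r was positive for 28 of 28 pairs, from 0.268 to 0.955. After Benjamini-Hochberg adjustment over the 28 pairs, permutation p values were under 0.1 for 21 pairs by Pearson's r and 6 by Spearman's rho. By the t distribution 18 of 28 pairs had a positive r with an unadjusted p under 0.05, against 7.87% of all pairs of genes in the table. The 8 genes were named through a Tg against Wt ranking and all 8 had a negative log2 fold change, which favours positive r. All pairs of the table were not chosen in this way, so nothing about the 8 genes is read from the comparison of shares. The permutations and the t distribution leave genotype, sex and batch out, and for residuals after all 3 the median r was 0.288. Without mouse 41 r was positive for 24 of 28 pairs, with a median r of 0.398 against 0.621 with it, so the pairs were less alike without this mouse.

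The closest pair was Grin2b and Cacna1e, an NMDA receptor subunit and a calcium channel (r = 0.955, permutation p = 2e-05, adjusted 0.00056, rho = 0.909, permutation p = 4e-05, adjusted 0.00112). Their r was 0.877 without the 2 mice farthest from the median of Grin2b, 0.943 within the 8 mice of batch 1, and 0.853 for residuals after sex, batch and genotype. Slc17a7 and Camk2a formed the next pair (r = 0.865, permutation p = 0.00034, adjusted 0.00476, rho = 0.874, permutation p = 0.00045, adjusted 0.0042). Their r was 0.977 without the 2 mice farthest from the median of Slc17a7, 0.988 within batch 1, and 0.761 for residuals. Batch 2, with 4 mice, was too small for a value of its own.

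Grin2a varied with Adcy1 (r = 0.842, permutation p = 0.00106, adjusted 0.00594, rho = 0.755, permutation p = 0.00626, adjusted 0.0292). This r was 0.724 without the 2 mice farthest from the median of Grin2a, 0.704 without mouse 41, 0.875 within batch 1 and 0.773 for residuals. Cacng3 varied with Camk2n1 (r = 0.834, permutation p = 0.00084, adjusted 0.00588, rho = 0.874, permutation p = 0.00041, adjusted 0.0042), with 0.763 without the 2 farthest mice, 0.871 within batch 1 and 0.709 for residuals. The 2 NMDA receptor subunits had r = 0.805 (permutation p = 0.00179, adjusted 0.00835) and rho = 0.58 (permutation p = 0.0517, adjusted 0.121). Their r was 0.415 without the 2 farthest mice, 0.865 within batch 1 and 0.448 for residuals, so it rested in part on those mice. Grin2a and Cacng3 were the least related pair (r = 0.268, permutation p = 0.405, adjusted 0.405, rho = -0.14, permutation p = 0.671, adjusted 0.783), with -0.365 without the 2 farthest mice, 0.592 within batch 1 and -0.00439 for residuals.

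**Figure D3:**
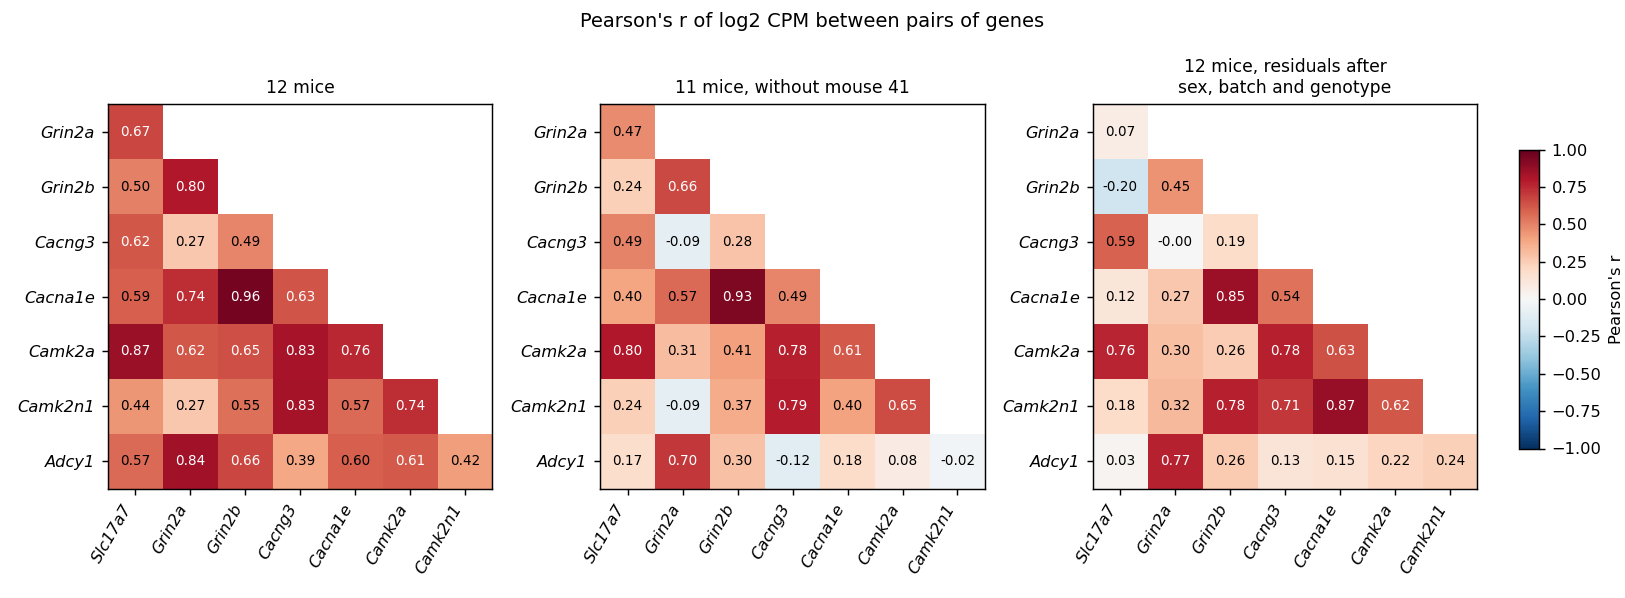
Pearson's r of log2 CPM for each of the 28 pairs of genes (color, from -1 to 1, with the value in each cell) in 12 mice, in 11 mice without mouse 41, and for residuals after sex, batch and genotype in 12 mice. Grin2b and Cacna1e stay the closest or nearly the closest pair in each panel (0.955, 0.931 and 0.853), whereas the r of Adcy1 with Camk2a is 0.613 in 12 mice and 0.0792 without mouse 41.

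Ratios within a mouse remove what 2 genes share in a library. Grin2b was 7.43 ± 1.24 times as high in CPM as Grin2a in Wt mice (SD, n = 5) and 6.69 ± 0.778 times in Tg mice (SD, n = 7), a log2 difference of -0.15 (exact permutation test, two-sided p = 0.234, adjusted 0.932 over 4 ratios). This ratio is not one of molecules, since the transcripts differ in length. The ratio of the inhibitor Camk2n1 to its target kinase gene Camk2a was 0.384 ± 0.0513 in Wt and 0.381 ± 0.0425 in Tg mice (log2 difference -0.01, exact permutation p = 0.932, adjusted 0.932). Cacng3 to Slc17a7 was 0.0627 ± 0.0189 in Wt and 0.0554 ± 0.00502 in Tg mice (log2 difference -0.14, exact permutation p = 0.471, adjusted 0.932). Adcy1 relative to the geometric mean of the other 7 genes was 0.973 ± 0.262 in Wt and 0.987 ± 0.136 in Tg mice (exact permutation p = 0.795, adjusted 0.932). Without Wt mouse 80 the log2 difference was 0.0225 for Cacng3 to Slc17a7 and -0.0529 for Grin2b to Grin2a, so the direction of the first and the size of both rested on this mouse, and without mouse 95 that of Cacng3 to Slc17a7 was -0.217. With each mouse left out, the log2 differences of Camk2n1 to Camk2a (-0.0462 to 0.0687) and of Adcy1 to the other 7 genes (-0.0206 to 0.191) also took either sign. For none of the 4 ratios did Wt and Tg mice differ by more than the spread between mice, and the limit on naming holds for them too.

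Between batches, Camk2n1 to Camk2a ran from 0.332 to 0.442 in batch 1 and from 0.382 to 0.472 in batch 2, with an exact permutation p of 0.0283 (adjusted 0.113 over 4 ratios). Camk2n1 to Camk2a thus had the smallest p of the 4 ratios for batch, and it did not pass adjustment. Its log2 difference of batch 2 minus batch 1 was 0.20. That of Cacng3 to Slc17a7 was larger, at 0.25 (exact permutation p = 0.105, adjusted 0.21). Those of Grin2b to Grin2a and of Adcy1 to the other 7 genes were 0.13 and -0.09.

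**Figure D4:**
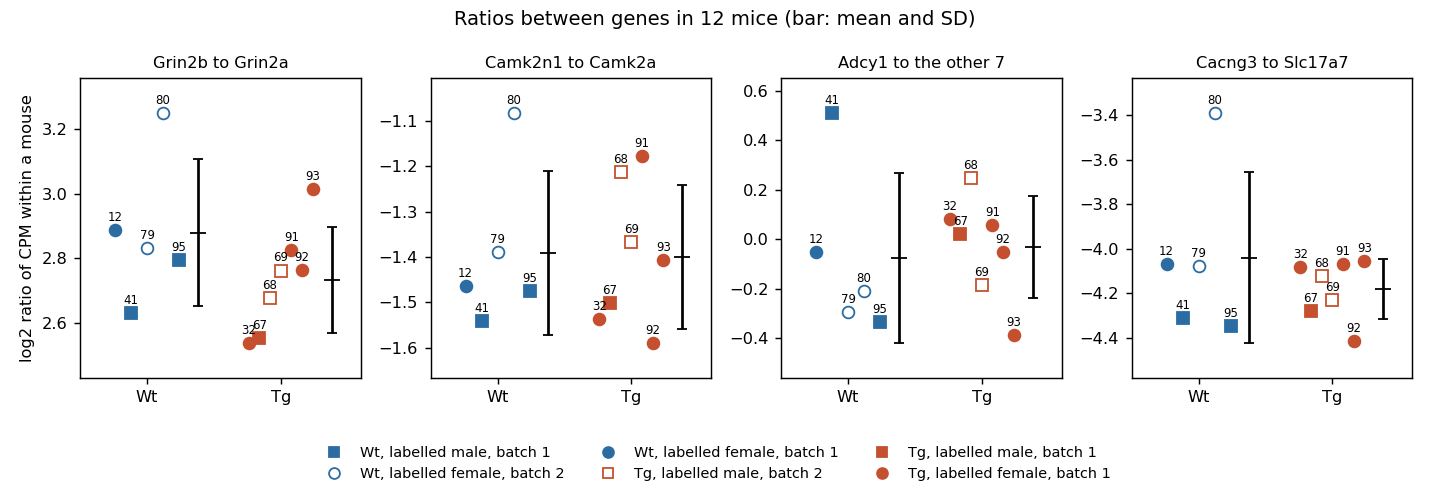
Log2 ratios of CPM between genes within a mouse (vertical axes) for Grin2b to Grin2a, Camk2n1 to Camk2a, Adcy1 to the geometric mean of the other 7 genes, and Cacng3 to Slc17a7, in every Wt and Tg mouse, with bars for the group mean and SD. The groups overlap in all 4 panels, and mouse 80 lies highest among Wt mice for 3 of the ratios and mouse 41 for that of Adcy1.

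Levels of App were examined beside the 8 genes within Tg mice. App had 2991, 3147 and 3393 CPM in the Tg mice 91, 92 and 32, and 5139.5 to 5727 CPM in mice 68, 93, 67 and 69. Since these values fall into separate clusters of 3 and 4 mice, no correlation across Tg mice is given, and values stand side by side. The geometric mean of the 8 genes was 402, 434 and 416 CPM in mice 91, 92 and 32, and 455, 493.3, 520.3 and 438 CPM in mice 68, 93, 67 and 69. Camk2n1 was between 679 and 714 CPM in mice 91, 92 and 32 and between 815 and 883 CPM in the other 4 Tg mice, and Cacng3 was between 58.0 and 70.6 CPM against 72.0 to 90.3 CPM. Such an order, with mice 91, 92 and 32 below the other 4, held for 2 of the 8 genes and 3.2% of all genes. The clusters overlapped for the other 6 genes, with Grin2a at 89.0 to 96.4 CPM against 78.9 to 126 CPM and Adcy1 at 417 to 437 CPM against 390.1 to 528 CPM. The 3 mice with less App were all labelled female and in batch 1, as was mouse 93 among the 4 with more.

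Levels of markers of other cell types were set beside the 8 genes. Of 13 oligodendrocyte markers 11 could be named, of which Mbp was the most abundant (1487 CPM on average) and none was at 0 in any mouse. Their summed level was 3723 CPM in Wt mouse 12, 2068 in mouse 79, 1652 in mouse 80, 1125 in mouse 41 and 1520.4 in mouse 95. In Tg mice it was 4860.3 in mouse 32, 6230.5 in mouse 91, 3495 in mouse 92, 1538 in mouse 93, 2034 in mouse 67, 4851 in mouse 68 and 3747 in mouse 69. Mouse 41, highest for all 8 genes, was the lowest for these markers, and mouse 91, lowest for Slc17a7 among Tg mice and for Camk2a and Cacng3 among all mice, was the highest.

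Each of the 8 genes was compared with the summed level of each of 5 marker lists with at least 3 named genes, 40 relations in all, which was decided after seeing the data. With the oligodendrocyte markers, Pearson's r was negative for 8 of 8 genes, and adjusted permutation p values were under 0.1 for 6 of 8 by both measures (all but Grin2a and Adcy1). The same 6 of 8 had a negative r with an unadjusted p under 0.05 (t distribution), against 6.09% of all genes. The 8 genes and the markers were named through the same Tg against Wt ranking, with 8 of 8 genes lower and 11 of 11 markers higher in Tg mice, which favours negative r. By Pearson's r over all mice Camk2a had the strongest relation (r = -0.881, permutation p = 4e-05, adjusted 0.0016, rho = -0.881, permutation p = 0.00034, adjusted 0.0068). Its r was -0.825 without the 2 mice farthest from the median of the markers, -0.85 without mouse 41 and -0.952 within batch 1. For residuals after sex, batch and genotype it was -0.849. By Spearman's rho and for residuals the strongest relation was that of Cacna1e. For Cacna1e r was -0.834 (permutation p = 0.0008, adjusted 0.0085) and rho -0.902 (permutation p = 0.0002, adjusted 0.0068), with -0.769 without the 2 farthest mice, -0.776 without mouse 41, -0.914 within batch 1 and -0.87 for residuals. For Adcy1 r was -0.406 (permutation p = 0.184, adjusted 0.223) and rho -0.133 (permutation p = 0.682, adjusted 0.737), with 0.199 without the 2 farthest mice, 0.0961 without mouse 41, -0.586 within batch 1 and -0.05 for residuals. The part of oligodendrocyte RNA in the differences between mice was not tested.

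Of 15 choroid plexus markers 14 could be named, with Ttr the most abundant (595 CPM on average), and Kcne2, Slc4a5, Tmem72 and Calml4 were at 0 in at least 1 mouse. Their summed level was 589.9 CPM in Wt mouse 12, 347 in mouse 79, 208 in mouse 80, 104 in mouse 41 and 140.2 in mouse 95. In Tg mice it was 1299.7 in mouse 32, 2341 in mouse 91, 1898 in mouse 92, 2166 in mouse 68 and 1821 in mouse 69, but 99.9 in mouse 93 and 99.99 in mouse 67. These values fall into clusters within the Tg group, so no pooled correlation is given, although the 8 relations entered the adjustment over 40. The Tg mice 93 and 67, with the lowest choroid plexus sums, had the highest levels among Tg mice of Slc17a7 (1503 and 1502 CPM), Grin2b (708 and 743 CPM), Cacna1e (515 and 496 CPM) and Camk2a (2342 and 2309 CPM). This order held for 4 of the 8 genes and 4.77% of all genes. For the other 4, mouse 93 had the lowest Adcy1 (390.1 CPM) and the second lowest Grin2a (87.6 CPM) of the Tg mice, and mouse 67 was not among the highest 2 for Camk2n1 (815 CPM) or Cacng3 (77.3 CPM). The part of choroid plexus tissue in these values was not tested.

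**Figure D5:**
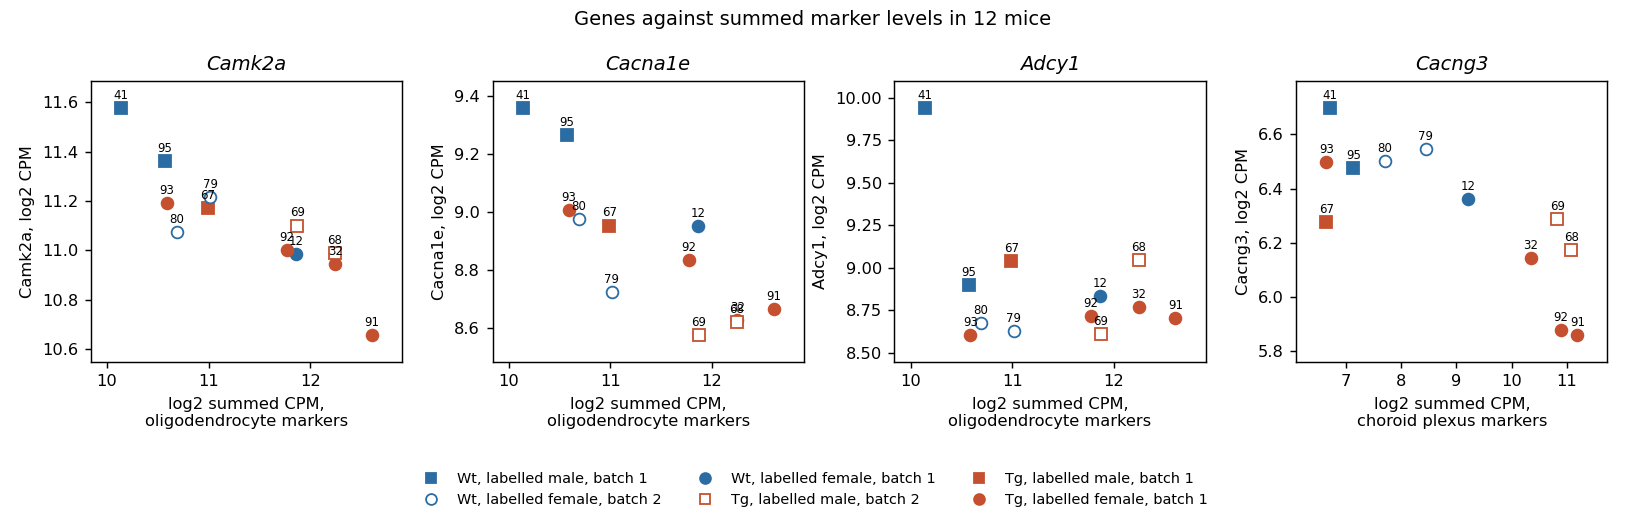
Log2 CPM of Camk2a, Cacna1e and Adcy1 against the log2 of the summed CPM of 11 oligodendrocyte markers, and of Cacng3 against that of 14 choroid plexus markers, with 1 numbered point per mouse. Camk2a and Cacna1e are lower where oligodendrocyte markers are higher (r = -0.881 and -0.834), and Adcy1 has 1 high mouse (41) and no such slope among the others.

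The remaining marker lists were thinner. Of 12 microglial markers 4 could be named (Tyrobp, C1qa, C1qb and Lyz2, with C1qb the most abundant), and their sum was 70.8 ± 8.64 CPM in Wt (SD, n = 5) and 89.8 ± 10.3 CPM in Tg mice (SD, n = 7). Of 10 astrocyte markers 5 could be named, led by Slc1a2, with sums of 3067 ± 301 CPM in Wt and 2715 ± 256 CPM in Tg mice. The sum was carried by Slc1a2 (1974 CPM on average), and 3 of the 5 had a positive log2 fold change, with a median of 0.31. Of 12 excitatory neuron markers 3 could be named (Slc17a6, Prox1 and Mef2c), with sums of 440.2 ± 101 CPM in Wt and 384 ± 60.1 CPM in Tg mice. This sum was carried by Mef2c (358 CPM on average), and 2 of the 3 had a positive log2 fold change, with a median of 0.38. Of 12 inhibitory neuron markers 2 could be named (Gad2 and Reln), with sums of 349 ± 47.8 CPM in Wt and 338 ± 39.0 CPM in Tg mice. Of 13 pan-neuronal markers only Nefh could be named, with 23.3 ± 2.21 CPM in Wt and 32.9 ± 11.5 CPM in Tg mice, and of 9 endothelial markers 0 could be named. Neuron content was therefore covered by few named markers.

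The 3 of these lists with at least 3 named genes gave the following among the 40 relations. With the excitatory neuron sum r was positive for 8 of 8 genes, and adjusted permutation p values were under 0.1 for 3 genes by Pearson's r (Cacng3, Camk2n1 and Adcy1) and 2 by Spearman's rho (Cacng3 and Camk2n1). By the t distribution 3 of 8 had a positive r with an unadjusted p under 0.05, against 5.26% of all genes. The excitatory neuron markers and the 8 genes were named through the same Tg against Wt ranking. The mean of this sum was lower in Tg mice, as were all 8 genes, which favours positive r. Camk2n1 had the highest value (r = 0.825, permutation p = 0.00079, adjusted 0.0085, rho = 0.79, permutation p = 0.00322, adjusted 0.0265), with r = 0.672 without the 2 mice farthest from the median of the markers, 0.77 without mouse 41, 0.835 within batch 1 and 0.702 for residuals. Without mouse 41 r with this sum was positive for 6 of 8 genes, from -0.137 to 0.77, and with all 12 mice rho was positive for 7 of 8. With the microglial sum r was negative for 8 of 8 genes, from -0.722 to -0.505, and adjusted permutation p values were under 0.1 for 4 genes by Pearson's r and 1 by Spearman's rho. By the t distribution 4 of 8 had a negative r with an unadjusted p under 0.05, against 3.47% of all genes. These markers were named through the same Tg against Wt ranking as the 8 genes. All 4 markers were higher and all 8 genes lower in Tg mice, which favours negative r. For residuals after sex, batch and genotype the r with the microglial sum ran from -0.492 to 0.258. With the astrocyte sum r was positive for 8 of 8 genes, from 0.00683 to 0.608, and adjusted permutation p values were under 0.1 for 1 gene by Pearson's r and 2 by Spearman's rho. Without mouse 41 r with the astrocyte sum was positive for 5 of 8 genes, from -0.376 to 0.564, and with all 12 mice rho was positive for 6 of 8. By the t distribution 1 of 8 had a positive r with an unadjusted p under 0.05, against 7.19% of all genes. The astrocyte markers were named in the same way, and the mean of their sum was also lower in Tg mice, which favours positive r.

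The genes whose log2 CPM followed the mean of the 8 most closely over the 12 mice, among 1341 other named genes, were Sptan1, Nrg3, Atp9b, Gabbr2 and Irgq, with Pearson's r from 0.947 to 0.961 as a description of likeness. Without mouse 41 their r ran from 0.867 to 0.922. All 1341 were named through the same Tg against Wt ranking as the 8 genes. Gabbr2, which encodes a GABA-B receptor subunit, had 440.5 ± 93.3 CPM in Wt and 376 ± 32.2 CPM in Tg mice. The most opposite were Aspa, Pdgfd, Setmar, Apod and D7Ertd443e, with r from -0.946 to -0.919. Aspa, an oligodendrocyte marker that encodes aspartoacylase, had 3.995 ± 2.35 CPM in Wt and 7.44 ± 3.06 CPM in Tg mice.

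Other genes of the pathway were taken from 9 lists that hold 147 genes, of which 22 outside the 8 could be named. Of these 22, 20 had a lower and 2 a higher level in Tg mice, with a median log2 fold change of -0.25, while 595 of the 1349 named genes and 8080 of all 15928 genes were lower. Of the 22, 15 of the lower and both of the higher had an unadjusted p under 0.05. Of all named genes 81.3% had such a p, so this count carries no more than the naming. At the adjusted threshold 0 of the 22 passed in edgeR's F-test (Benjamini-Hochberg), and the limit on naming holds for them as for the 8. Among the auxiliary subunits Cnih3 (-0.30), Neto1 (-0.26) and Shisa7 (-0.22) had negative log2 fold changes, and Cacng5 a positive one (0.24). Among voltage-gated calcium channel genes Cacna2d1 (-0.39), Cacnb3 (-0.24), Cacna1c (-0.20) and Cacna1b (-0.19) were all negative. In calcium stores and pumps Ryr2 (-0.27), Plcb1 (-0.27) and Atp2a2 (-0.16) were negative, as were Grm7 (-0.22), Camkv (-0.23) and Creb1 (-0.22).

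The transporters differed in direction. Slc17a6, which encodes the vesicular transporter VGLUT2, had 25.6 ± 14.6 CPM in Wt and 37.5 ± 13.1 CPM in Tg mice. Its log2 fold change of 0.75 was opposite in sign to that of Slc17a7. Slc1a2 and Slc1a3, the glial glutamate transporters, had log2 fold changes of -0.32 and -0.19. The 4 named activity-dependent genes, Egr4 (-0.74), Egr3 (-0.44), Homer1 (-0.38) and Nptx2 (-0.32), were all negative. Egr4 had 28.2 ± 18.9 CPM in Wt and 16.6 ± 3.22 CPM in Tg mice, so its spread among Wt mice was larger than the difference between the means.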

How the data were processed

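RNA-seq of 12 mice was analysed. Per the submitters' notes, ribosomal RNA was removed from total RNA and libraries were sequenced on an Ion Torrent S5XL. The authors aligned reads to mm10 with STAR and Bowtie2 in an Ion Torrent plugin, and deposited counts of unique, unambiguous reads per gene after they removed genes of low count with edgeR (versions not stated). The deposited normalization factors are a ratio of each library's effective to its total size, which the authors computed with edgeR. TMM factors recomputed here differed from them by at most 4.88e-15. All columns were mapped to samples.

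The count table has no gene names. The 12 size factors behind the study's list of 1684 mean counts were solved from the count table and those means, starting near DESeq2's size factors. A row was named where its mean count, scaled by the solved factors, matched a single listed mean within a relative tolerance of 1e-09. This named 1349 rows, with a largest difference of 4.4e-10, and 0 were paired in 10 trials with shifted means.

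Counts were fitted with edgeR 4.0.16 (R 4.3.3) by quasi-likelihood on sex, batch and genotype, and a second fit added the genotype by sex term. TMM scaling and filterByExpr were used, the filter removed no gene, the common biological coefficient of variation was 0.201, and genes were called at an adjusted p under 0.1 (Benjamini-Hochberg). DESeq2 1.42.0, other scalings, filters and covariates, batch 1 alone and leaving out each mouse were the alternatives. Log2 CPM used a prior count of 2 (alternative 0.5). Exact permutation tests ran over 792 splits of 5 and 7 mice for genotype, with a smallest possible two-sided p of 0.00126, and over 495 splits of 8 and 4 mice for batch (smallest 0.00202), and correlations used 100000 permutations (Python 3.11.15, numpy 2.4.6, scipy 1.17.1, matplotlib 3.10.9). Scripts were tested on simulated data.

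Named genes were the 8 genes, App, Xist, every nameable gene of the pathway and marker lists, and the 5 genes most like and most opposite to the mean of the 8. The values of 1 listed gene are not reported here. The members and lists were chosen with earlier results of these data known. Shares of all genes and of all pairs beside correlations and orders within Tg mice were computed after seeing the data, with p from the t distribution for correlations. The correlation of each gene with marker sums was chosen after seeing the data and replaced a planned correlation with the mean of the 8 genes, which is not reported. Planned correlations with App within Tg mice are not reported because the App values fell into separate clusters.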

Additional observations from a re-analysis of the deposited data

Results flagged for a closer look

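Chance flags about 1 in 20 groups by the distance of a single mouse, and 38 groups were tested. In 5 of them 1 mouse lay far from the rest of its group. Adcy1 had 982 CPM in Wt mouse 41, and Adcy1 relative to the other 7 genes was 1.43 in the same mouse. Grin2a had 126 CPM in Tg mouse 67, the ratio of Cacng3 to Slc17a7 was 0.0954 in Wt mouse 80, and Nefh had 56.9 CPM in Tg mouse 91.

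The raw values of Grin2a lay in opposite directions in the sexes. All 3 Tg mice labelled male lay below the mean of the Wt mice labelled male, with a mean log2 difference of -0.58, while all 4 Tg mice labelled female lay above the mean of the Wt mice labelled female. The genotype by sex term of edgeR's fit had an unadjusted p of 0.478 and an adjusted p of 0.992 (Benjamini-Hochberg), so a difference was not detected. Batch 2, which was lower for Grin2a by a log2 difference of -0.47, held 2 of 3 Wt and 0 of 4 Tg mice labelled female, and 0 of 2 Wt and 2 of 3 Tg mice labelled male, so genotype and batch cannot be told apart in these raw values. Mouse 41, whose Xist level goes against its label, is 1 of the 2 Wt mice labelled male.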

How the results depend on the processing

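The fitted log2 fold changes of the 8 genes for Tg against Wt kept their sign and their side of the threshold in 176 of 176 alternatives. Those for female against male did so in 149 of 152, and 0 reversed. For Tg against Wt 0 of the 8 passed in the main fit, so these counts say little about size. Adcy1 ran from -0.44 to -0.04 when each mouse was left out. Without covariates and mouse 41, differences of mean log2 CPM were positive for Grin2a (0.012) and Adcy1 (0.024) and negative for the other genes.

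Genes called for Tg against Wt (1) were 56 with DESeq2, 2 with CPM over 1 in all 12 libraries, 0 in batch 1 alone and 0 without both Wt mice labelled male (added after seeing the data), and 1 to 2 when each mouse was left out. Genes called by sex (0) were 175 with DESeq2 and 0 to 540 when each mouse was left out. For genotype by sex (0) they were 17 with DESeq2 and 0 to 1, and for batch (0) 24 with DESeq2 and 0 to 0. The 6 of the 8 genes lower in Tg mice at an unadjusted p under 0.05 became 3 with no sex term, 0 in batch 1 alone, 0 without both Wt mice labelled male, and 3 to 7 when each mouse was left out. Among these settings a share of all genes at that p was counted only without mouse 41. With no sex term the log2 fold changes themselves hardly moved. They were -0.213 for Grin2a, -0.245 for Camk2a and -0.231 for Camk2n1, against -0.220, -0.248 and -0.233 in the main fit.

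With each mouse left out, the log2 difference between Tg and Wt ran from -0.207 to -0.0529 for Grin2b to Grin2a, from -0.0462 to 0.0687 for Camk2n1 to Camk2a, from -0.0206 to 0.191 for Adcy1 to the other 7 genes, and from -0.217 to 0.0225 for Cacng3 to Slc17a7, so the last 3 changed sign. The cause was not tested.

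No paired analysis was possible because the groups share no replicate numbers. Limits are the 2 Wt mice labelled male, of which 1 has a level of Xist against its label, the 4 mice of batch 2 in which sex and genotype cannot be told apart, whole tissue, and the naming of genes through the study's own ranking.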
